A study of Mus musculus with 12 samples.

Results

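The 9 genes described here encode factors that act in start codon selection, initiator tRNA delivery or the subunit joining that follows. These genes are Eif1, Eif1b, Eif1ax, Eif5, Eif5b, Bzw1, Bzw2, Eif2s1 and Eif2s2. They were taken by symbol, as the eIF1, eIF1A, eIF5, eIF5B, eIF5-mimic and eIF2 subunit genes, from a table of read counts for 55421 gene identifiers. All 9 were found and all 9 had counts in every library, from 288 to 13639. RNA came from mouse small intestine in 3 groups of 4 libraries. WT is labelled wild type and day 7, with 3 males and 1 female. Apc carries VilCreER and 2 floxed Apc alleles (Apcfl/fl) and is labelled day 4, with 3 males and 1 female. Apc Eif3h carries VilCreER, Apc fl/fl and Eif3h fl/fl and is labelled day 4, with 4 males. VilCreER is a tamoxifen-activated Cre driven from a villin promoter, which acts in gut epithelium, so other cells of the tissue keep both genes intact. The treatment text, given alike for every library, describes 2 intraperitoneal tamoxifen injections of 80 mg/kg at an interval of 24 hours and harvest at 7 days, which differs from the day 4 labels. In comparisons with WT, genotype and day cannot be told apart. The labels give no ages and do not say that libraries of a group came from separate animals. The p-values therefore rest on a spread among libraries that may be technical.

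As background, eIF1 and eIF1A hold the small ribosomal subunit in an open form that scans the 5′ leader of an mRNA. The ternary complex of eIF2, GTP and initiator methionyl-tRNA supplies the anticodon that reads the start codon. On pairing, eIF1 leaves, eIF5 completes GTP hydrolysis by eIF2, and eIF5B together with eIF1A then brings in the large subunit. Bzw1 and Bzw2 encode the eIF5-mimic proteins, which share the eIF2-binding domain of eIF5 and compete with it. High eIF1 makes start codon selection strict and high eIF5 makes it loose, and both proteins are known to regulate translation of their own mRNAs. eIF3, of which Eif3h is a subunit, is the scaffold on which these factors meet the small subunit. In the small intestine, loss of Apc activates Wnt signalling and crypt-like proliferation.

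Because these proteins act around start codon recognition, the start codons of their own mRNAs are shown first. Each line gives 10 bases before and 5 bases from the A of the annotated start codon of the main transcript (GENCODE M21, GRCm38), 5′ to 3′. Capitals mark the base at position -3, the ATG, and the base at +4, counted from the A as +1.
Eif1: atcgtatCgtATGTc
Eif1b: ctagtgtCgcATGTc
Eif1ax: ctttgcgGccATGCc
Eif5: ataagccAaaATGTc
Eif5b: ttgacaaGcgATGGg
Bzw1: ggtgtctTttATGAa
Bzw2: cagtaatTttATGAa
Eif2s1: ccacttcAgaATGCc
Eif2s2: aactacaGccATGTc

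The favoured (Kozak) context has a purine at -3 and a G at +4. Of 20326 protein-coding genes, 84.5% had the purine, 49.6% had the G and 7.37% had neither. The 4 genes with neither were Eif1, Eif1b, Bzw1 and Bzw2, that is, both members of the eIF1 pair and both members of the eIF5-mimic pair. Within each pair the -3 and +4 bases were the same, C and T in the eIF1 pair and T and A in the eIF5-mimic pair. Eif5b alone of the 9 had both favoured bases, as did 41.5% of all coding genes. Eif5 had an A at -3, and its 5′ leader was the longest of the 9 at 626 bases, against a median of 173 over all coding genes. It also held 5 ATGs upstream of the main start. Eif5b held 3, Eif2s1 held 2, Eif1, Bzw2 and Eif2s2 held 1 each, and Eif1ax, Eif1b and Bzw1 held none, where 54.97% of coding genes held at least 1. The pairs also matched in length: Eif1 and Eif1b each encode 113 residues, and Bzw1 and Bzw2 each encode 419. These features describe the annotated transcripts. The libraries measure RNA, not where ribosomes started.

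The targeted gene was read first. Eif3h had 142, 126, 134 and 135 CPM (counts scaled to library size, with TMM factors for library composition) in WT and 168, 164, 158 and 175 in Apc. In Apc Eif3h it had 28.3, 43.1, 54.6 and 25.9, with a log2 fold change of -2.13 (SE 0.19) against Apc (adjusted p = 0.00043). The fourth and first libraries of that group had the least Eif3h and the third the most. Apc itself had 105 ± 12.01 CPM in Apc Eif3h, 114 ± 6.96 in Apc and 94.2 ± 5.02 in WT (SD, n = 4 each). The Apc gene was called higher in Apc against WT, by a log2 fold change of 0.28 (SE 0.09, edgeR, adjusted p = 0.0196), without overlap. In Apc Eif3h it was not called against either other group. Whole-gene counts do not isolate floxed exons, so Apc counts did not check that deletion.

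Library totals were 10483112 to 21298301 counts, and 17394 genes passed the filter on low counts, all 9 members among them. All 6 epithelial markers were detected in every library, with a summed level of 7491 to 11185 CPM in Apc Eif3h, 8213 to 9821 in Apc and 10498 to 14620 in WT, and 3 of 6 were called lower in Apc than in WT. The 6 cycling-cell markers, all called higher in Apc than in WT, summed to 618 to 848 CPM in Apc Eif3h, 699 to 889 in Apc and 264 to 396 in WT. The 6 enterocyte markers summed to 12522 to 20763, 9707 to 17227 and 23834 to 33029 CPM in the same order, and 4 of 6 were called lower in Apc than in WT. T cell markers (6 of 6) and stroma and muscle markers (3 of 6) were also called lower in Apc than in WT. Pancreatic acinar markers summed to 8.49 to 14.2 CPM, with 2 of 6 at 0 in all libraries. Cela1 alone held 8.29 to 13.9 CPM, and no other acinar marker exceeded 0.39 CPM in any library. Replicate 2 of Apc Eif3h stood apart in B cell markers. Cd79a, a B cell receptor chain, was at 83.8 CPM there, 1.68 to 1.87 in the other libraries of that group, 1.35 to 3.37 in Apc and 3.83 to 13.2 in WT. Ighm, an immunoglobulin heavy chain, was at 462 CPM there, 8.56 to 10.7 in the others of that group, 8.91 to 12.5 in Apc and 17.5 to 131 in WT. In bulk tissue, fewer cells of a type and less RNA per cell cannot be told apart, and the part of these shifts in the results below was not tested.

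Together the 9 genes held 1614 to 2172 CPM in Apc Eif3h, 1270 to 1465 in Apc and 883 to 1006 in WT, with no overlap between the groups. In Apc against WT, 7 of 9 were called higher at an adjusted p below 0.05 and none lower (edgeR, also none at an unadjusted p below 0.05, and none in DESeq2), where 27.7% of all genes tested were called higher and 23.9% lower. The median log2 fold change of the 9 was 0.52, beside -0.01 over all genes tested. The exceptions were Eif1 and Eif1b. In Apc Eif3h against Apc, 3 of 9 were called higher and none lower, where 3.97% of genes were called higher and 2.47% lower. Those 3 were Eif1, Eif1b and Eif5. An unadjusted p below 0.05 was reached by 7 of the 9, all of them higher. The share of all genes at that looser cut-off was not computed, so this count has no background beside it. DESeq2 called 5 of the 9 higher and none lower, where it called 1083 genes higher in place of 691. The median of the 9 was 0.30, beside a median of 0.00 over all genes (-0.0013). In Apc Eif3h against WT, all 9 were called higher (29.7% of genes higher, 27.8% lower), with a median of 1.002 beside -0.03 over all genes. The comparisons share libraries with one another and are given side by side, not as independent evidence.

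**Figure D1:**
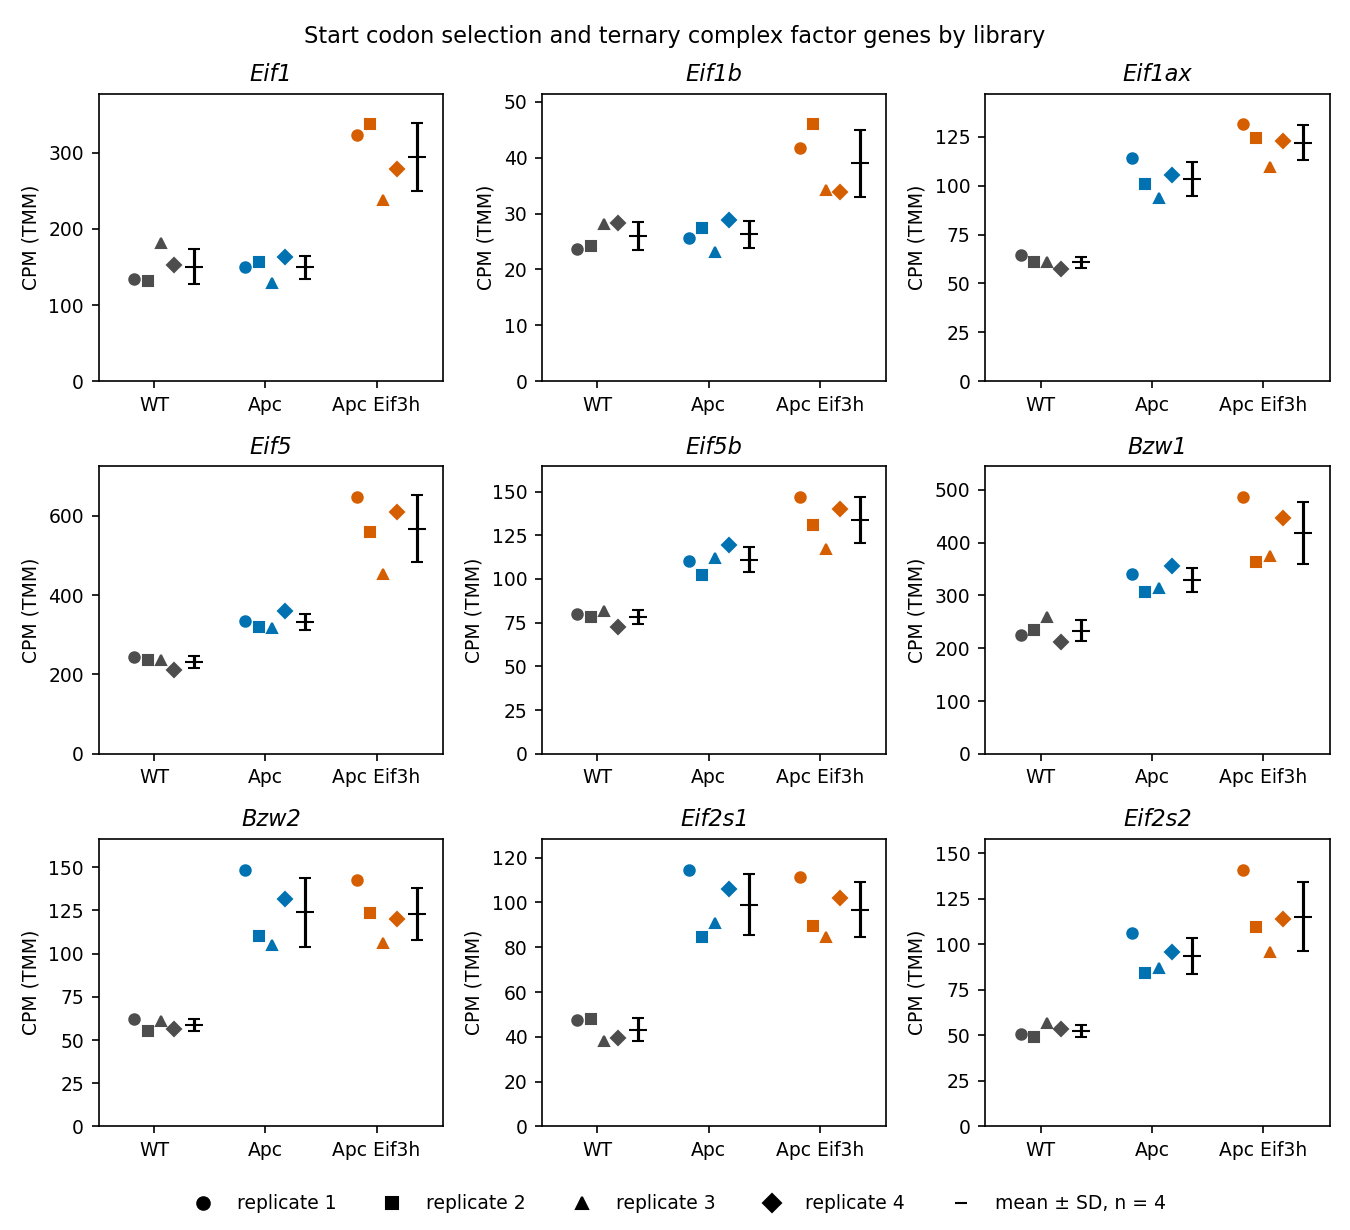
Level of each of the 9 genes in every library, in CPM after TMM scaling (y axis, from 0), by group (x axis), with marker shape for the replicate number and the mean ± SD of 4 libraries beside each group. Eif1 and Eif1b were level between WT and Apc and higher in Apc Eif3h, Bzw2 and Eif2s1 were higher in both mutant groups than in WT, and Eif5 stepped up in both.

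Eif1 (chromosome 11, 100319885 to 100322096, plus strand, GRCm38) encodes eIF1, the scanning factor that keeps the ribosome from accepting a wrong start codon. It had 134, 132, 182 and 153 CPM in WT and 149.6, 157, 128 and 164 in Apc. In Apc Eif3h it had 324, 337, 238 and 279. Every Apc Eif3h library was above every library of the other groups, which overlapped each other. The log2 fold change was 0.98 (SE 0.13) in Apc Eif3h against Apc, with an adjusted p of 0.0030 in edgeR's quasi-likelihood test, a 1.97-fold difference that 1.75% of genes tested exceeded. Between Apc and WT it was -0.01 (SE 0.13, adjusted p = 0.973), with an interval of 2 SE from -0.27 to 0.26.

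Eif1b (chromosome 9, 120492232 to 120495330, plus strand) encodes a close paralog of eIF1. It had 23.6, 24.2, 28.1 and 28.3 CPM in WT, 25.6, 27.5, 23.1 and 28.9 in Apc, and 41.8, 46.0, 34.3 and 33.9 in Apc Eif3h. As with Eif1, WT and Apc overlapped and all 4 Apc Eif3h libraries lay above them. The log2 fold change in Apc Eif3h against Apc was 0.57 (SE 0.12, adjusted p = 0.0152). That call was lost without Apc replicate 3 (0.51, adjusted p = 0.0598) and in males alone (0.56, adjusted p = 0.0522). Between Apc and WT the change was 0.01 (SE 0.12, adjusted p = 0.937).

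Eif1ax (chromosome X, 159372178 to 159389928, plus strand) encodes eIF1A, which binds beside eIF1 during scanning and later helps eIF5B join the subunits. It had 64.3, 61.1, 61.0 and 57.3 CPM in WT, 114, 101, 93.5 and 105 in Apc, and 131, 124, 109.5 and 123 in Apc Eif3h. All Apc libraries were above all WT libraries, while Apc and Apc Eif3h overlapped. It rose by a log2 fold change of 0.76 (SE 0.08) in Apc against WT (adjusted p = 2.64e-05). Between Apc Eif3h and Apc the change of 0.24 (SE 0.08) did not pass (adjusted p = 0.0972). Its autosomal paralog Eif1a had 148 ± 22.4 CPM in Apc Eif3h, 121 ± 19.1 in Apc and 80.8 ± 7.45 in WT (SD, n = 4), and rose in Apc against WT by 0.59 (SE 0.13, adjusted p = 0.0026).

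Eif5 (chromosome 12, 111538016 to 111546752, plus strand) encodes the GTPase-activating protein of eIF2. It had 245, 237, 237 and 210.5 CPM in WT and 334, 319.5, 317 and 359 in Apc. In Apc Eif3h it had 647, 559, 454 and 609. It was the one gene of the 9 called in all 3 comparisons, and no 2 groups overlapped. The log2 fold change was 0.52 (SE 0.11, adjusted p = 0.0020) in Apc against WT and 0.77 (SE 0.11, adjusted p = 0.0038) in Apc Eif3h against Apc. Against WT, Apc Eif3h differed by 1.29 (SE 0.11, adjusted p = 4.70e-06), the highest value of the 9 in that comparison.

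Eif5b (chromosome 1, 37998010 to 38055579, plus strand) encodes the GTPase of subunit joining. It had 80.1, 78.2, 81.9 and 72.5 CPM in WT, 110.2, 102, 112 and 119.6 in Apc, and 147, 131, 117 and 140.1 in Apc Eif3h. The Apc libraries were all above WT, and the third Apc Eif3h library fell within the Apc range. The log2 fold change was 0.51 (SE 0.08, adjusted p = 0.00043) in Apc against WT. It was 0.27 (SE 0.08) in Apc Eif3h against Apc, which did not pass in edgeR (adjusted p = 0.0781) and passed in DESeq2 (adjusted p = 0.0448).

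Bzw1 (chromosome 1, 58392898 to 58407353, plus strand) and Bzw2 (chromosome 12, 36091835 to 36158080, minus strand) encode the 2 eIF5-mimic proteins. Bzw1 had 225, 235, 260.01 and 213 CPM in WT, 342, 307, 313 and 355 in Apc, and 487, 363, 374 and 447 in Apc Eif3h, with no overlap between any groups. Bzw2 had 61.9, 55.1, 61.1 and 56.2 CPM in WT, 149, 110.4, 105 and 131 in Apc, and 143, 123, 106 and 119.8 in Apc Eif3h. For Bzw2 both mutant groups lay above WT and overlapped each other. Bzw1 rose by 0.50 (SE 0.11, adjusted p = 0.00256) and Bzw2 by 1.08 (SE 0.12, adjusted p = 3.14e-05) on the log2 scale in Apc against WT. Bzw1 differed by 0.34 (SE 0.11) in Apc Eif3h against Apc, which did not pass in edgeR (adjusted p = 0.0833) and passed in DESeq2 (adjusted p = 0.0391). Bzw2 differed by -0.01 (SE 0.12, adjusted p = 0.974), with an interval of 2 SE from -0.24 to 0.23.

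Eif2s1 (chromosome 12, 78861819 to 78887010, plus strand) encodes eIF2 alpha, the subunit phosphorylated by the stress kinases. It had 47.6, 47.8, 38.1 and 39.5 CPM in WT, 115, 84.5, 90.9 and 106 in Apc, and 111, 89.5, 84.5 and 102 in Apc Eif3h. Both mutant groups lay above WT and overlapped each other. Its log2 fold change of 1.19 (SE 0.12, adjusted p = 2.26e-05) in Apc against WT was the highest of the 9 and was exceeded by 6.76% of genes tested. Between Apc Eif3h and Apc it was -0.03 (SE 0.12, adjusted p = 0.910), with an interval of 2 SE from -0.28 to 0.21.

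Eif2s2 (chromosome 2, 154871410 to 154892935, minus strand) encodes eIF2 beta, which contacts eIF5. It had 51.0, 49.2, 56.8 and 53.2 CPM in WT, 106, 84.5, 87.1 and 95.6 in Apc, and 141, 109.5, 95.9 and 114 in Apc Eif3h. All Apc libraries were above all WT libraries, and the third Apc Eif3h library fell within the Apc range. The log2 fold change was 0.83 (SE 0.12, adjusted p = 0.00012) in Apc against WT. Between Apc Eif3h and Apc it was 0.30 (SE 0.11) and did not pass (adjusted p = 0.134). The gamma subunit is encoded by the X-linked Eif2s3x, which rose in Apc against WT by 0.83 (SE 0.21, adjusted p = 0.0055). Eif2s3x varied widely within Apc, with 35.2 ± 5.33 CPM in Apc Eif3h, 43.2 ± 15.5 in Apc and 24.2 ± 3.88 in WT (SD, n = 4). The Y-linked Eif2s3y, which females lack, also encodes it (log2 fold change 0.10, SE 0.997, in Apc against WT).

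**Figure D2:**
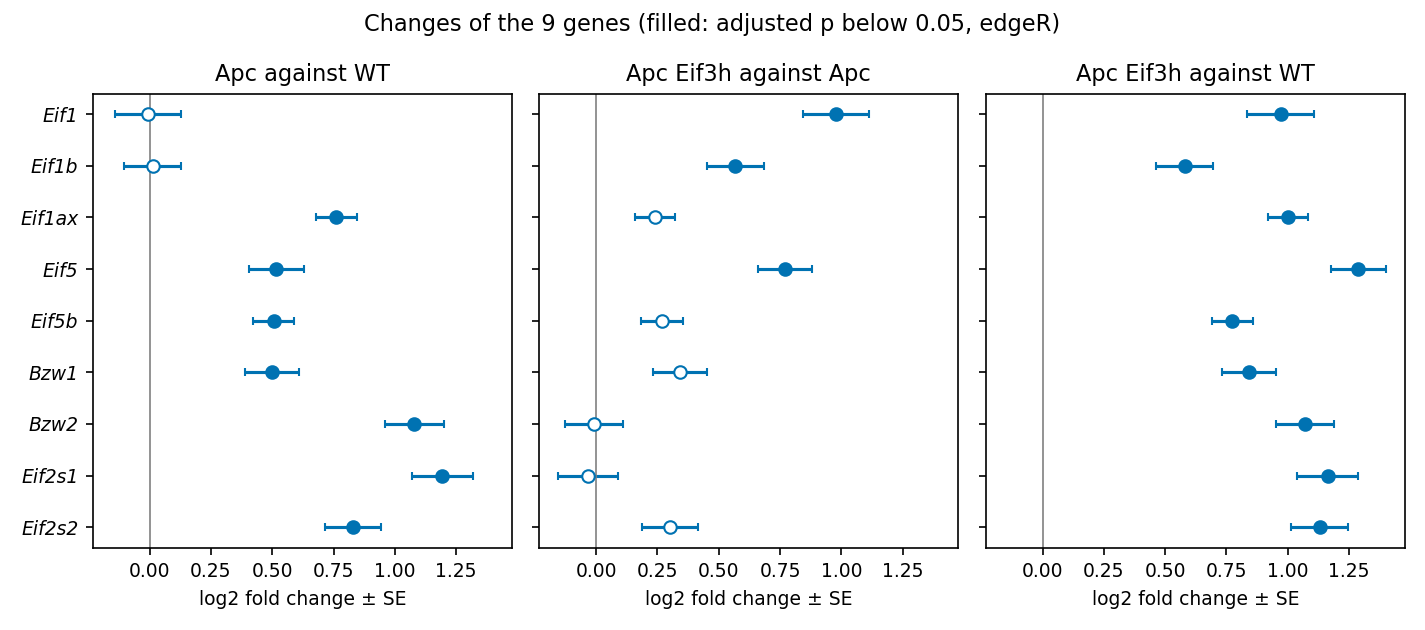
Log2 fold change (x axis) ± SE of each of the 9 genes (y axis) in the 3 comparisons, with filled points for an adjusted p below 0.05 in edgeR. In Apc against WT the open points are Eif1 and Eif1b, near 0. In Apc Eif3h against Apc the filled points are Eif1 at 0.98, Eif5 at 0.77 and Eif1b at 0.57.

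Replicate 3 of Apc Eif3h, the library with the most Eif3h left (54.6 CPM), was the lowest of its group for 7 of the 9 genes. Replicate 1 (Eif3h at 28.3 CPM) was the highest for 7 of 9. Replicate 4, with the least Eif3h (25.9 CPM), was the highest for 0 of the 9 and the lowest for 1. The same counts over all genes were not made. The enterocyte marker sum of replicate 3 (20763 CPM) was the highest of the group. The part of Eif3h level or of enterocyte content in the levels of the 9 genes was not tested. Without replicate 3, the genes called in Apc Eif3h against Apc numbered 7 of 9 in place of 3. The 4 added were Eif1ax (0.31, adjusted p = 0.0326), Eif5b (0.35, adjusted p = 0.0201), Bzw1 (0.42, adjusted p = 0.0475) and Eif2s2 (0.40, adjusted p = 0.0457). Bzw2 (0.08) and Eif2s1 (0.05) did not pass there either, at adjusted p of 0.747 and 0.846. Over all genes, 1073 were called higher without replicate 3, in place of 691. Without replicate 2, the library with high B cell markers, Eif1 (0.91, adjusted p = 0.0113), Eif5 (0.78, adjusted p = 0.0118) and Eif1b (0.48, adjusted p = 0.0422) were still called. Without Apc replicate 3, 234 genes in all and 2 of the 9 were called higher, and Eif1 (0.91, adjusted p = 0.0182) and Eif5 (0.75, adjusted p = 0.0227) were those 2.

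Ratios of 2 genes inside a library do not depend on how libraries are scaled, and 5 were compared across the 3 comparisons, from counts per kilobase of exon. With 4 libraries against 4, the exact two-sided permutation test cannot give a p below 0.0286, which adjusted over the 15 tests became 0.0536, and no ratio was called. With the length of the main transcript in place of all exons, 9 of the 15 reached that smallest p and had an adjusted p of 0.0476. Among these, only Eif5/(Bzw1+Bzw2) in Apc against WT was new. Length shifts a ratio of 2 single genes alike in every library, so those differences and their unadjusted p stayed the same. Differences are therefore given with their overlap. The log2 ratio of Eif1 to Eif1b was 2.02 ± 0.10 in Apc Eif3h, 1.61 ± 0.03 in Apc and 1.62 ± 0.12 in WT (SD, n = 4). All 4 Apc Eif3h libraries (1.90 to 2.14) lay above all others (1.53 to 1.79 in WT), a difference of 0.41 against Apc (exact permutation p = 0.0286, adjusted p = 0.0536). Both paralogs were called higher in that group on their own.

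The log2 ratio of Bzw1 to Bzw2 was 2.19 ± 0.14 in Apc Eif3h, 1.85 ± 0.16 in Apc and 2.42 ± 0.12 in WT (SD, n = 4). WT and Apc did not overlap (difference -0.57, exact permutation p = 0.0286, adjusted p = 0.0536), while Apc Eif3h overlapped both. The log2 ratio of Eif2s1 to Eif2s2 was 0.21 ± 0.09 in Apc Eif3h, 0.53 ± 0.06 in Apc and 0.16 ± 0.26 in WT (SD, n = 4). Apc was above both other groups without overlap, by 0.37 over WT and 0.32 over Apc Eif3h (exact permutation p = 0.0286 and adjusted p = 0.0536 for each).

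The log2 ratio of Eif5 to the summed eIF5-mimic genes was -0.61 ± 0.12 in Apc Eif3h, -1.10 ± 0.07 in Apc and -1.01 ± 0.09 in WT (SD, n = 4). Every Apc Eif3h library (-0.76 to -0.46) lay above every other library (-1.20 to -0.90), a difference of 0.49 against Apc and 0.40 against WT (exact permutation p = 0.0286 and adjusted p = 0.0536 for each). Between Apc and WT the ratios overlapped (-0.09, exact permutation p = 0.2, adjusted p = 0.231), while with the length of the main transcript the difference was -0.20 (exact permutation, adjusted p = 0.0476). The log2 ratio of Eif1 to Eif5, whose proteins act in opposite directions on strictness, was 0.76 ± 0.17 in Apc Eif3h, 0.55 ± 0.11 in Apc and 1.06 ± 0.25 in WT (SD, n = 4). Apc lay below WT without overlap (-0.52, exact permutation p = 0.0286, adjusted p = 0.0536), and Apc Eif3h overlapped both.

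**Figure D3:**
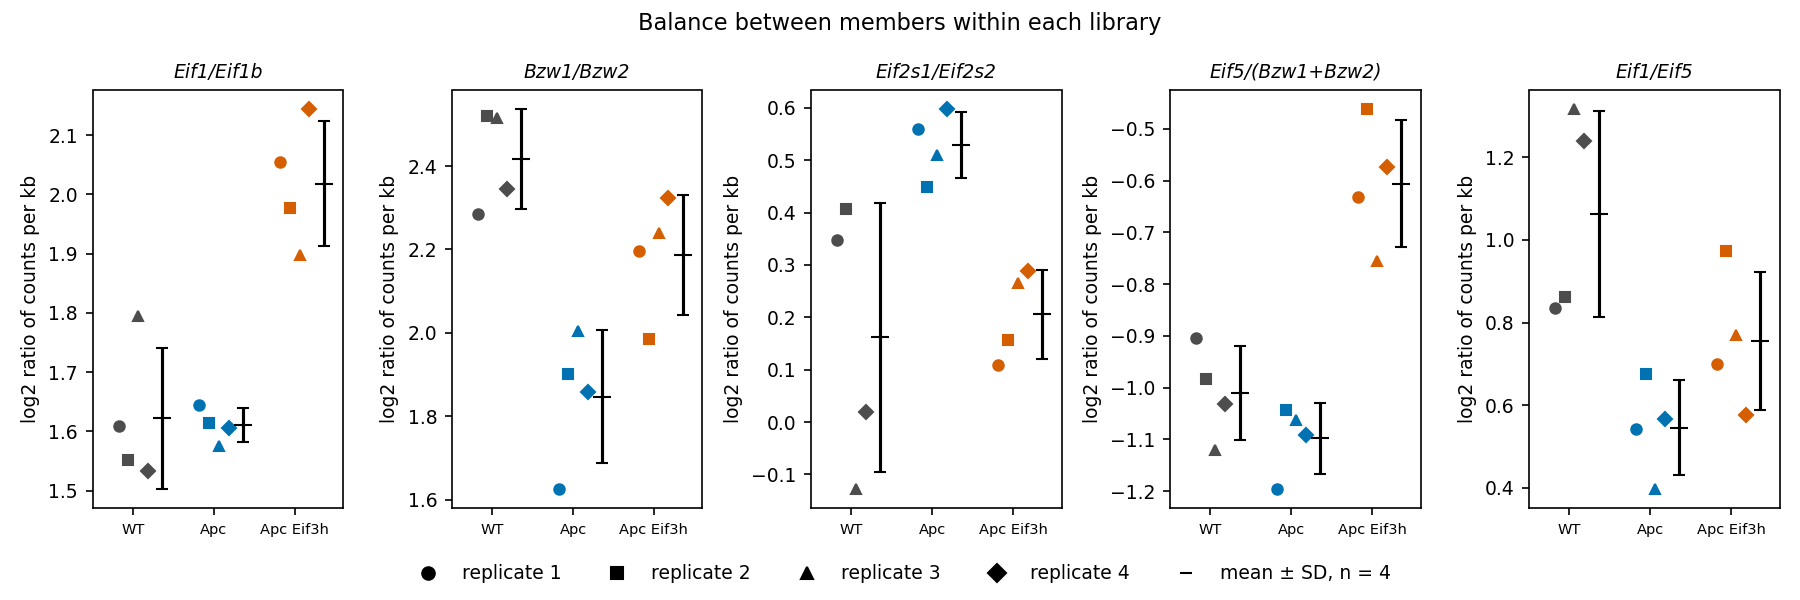
Log2 ratio of counts per kilobase between members within each library (y axes, which do not start at 0 and differ between panels), by group, with marker shape for the replicate number and the mean ± SD of 4 libraries. Apc Eif3h stands above both other groups in Eif1/Eif1b and Eif5/(Bzw1+Bzw2), and Apc stands above both in Eif2s1/Eif2s2.

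Levels between genes were compared as CPM per kilobase of the exons annotated for each gene. In WT the order was Eif1 (71.7 ± 10.9), Bzw1 (57.8 ± 5.002), Eif5 (34.1 ± 2.20), Eif1b (23.2 ± 2.22), Eif1ax (11.6 ± 0.54), Bzw2 (10.8 ± 0.63), Eif2s1 (8.74 ± 1.04), Eif5b (8.02 ± 0.42) and Eif2s2 (7.78 ± 0.49; SD, n = 4). The library ranges of Eif1 and Bzw1 overlapped, as did those of Eif1ax and Bzw2, and those of Eif2s1, Eif5b and Eif2s2. The other neighbours in the order did not overlap. In Apc, Bzw1 (81.6 ± 5.66) stood before Eif1 (71.4 ± 7.30) with overlapping ranges. In Apc Eif3h, Eif1 (140.4 ± 21.5) was followed by Bzw1 (104 ± 14.6) and Eif5 (83.2 ± 12.3; SD, n = 4), and Bzw1 overlapped both of the others. The order depends on the length used: with the length of the main transcript alone, Eif1 was first and Eif5b last in all 3 groups, Bzw2 moved up to 31.3 ± 1.82 CPM per kilobase in WT, and Eif5 (140.04 ± 20.7) came second in Apc Eif3h.

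Profiles over the 12 libraries were compared as log2 CPM centred per gene, by root mean square difference, where 0 is an identical profile. Among the 9, Eif5b and Bzw1 were nearest to each other (0.080) and Eif1 and Eif2s1 were farthest apart (0.576). Eif1 and Eif1b differed by 0.207, and Eif2s1 was nearest to Bzw2 (0.129). Among 12700 other genes, the nearest to Eif5 was Eef1a1, the elongation factor that delivers tRNAs to the ribosome (0.062). Eef1a1 had 5086 CPM in Apc Eif3h, 3118 in Apc and 2108 in WT (means). Nearest to Eif1ax was Eif2b5, the catalytic subunit of the eIF2 exchange factor (0.052), and nearest to Eif2s1 was Mthfd1, an enzyme of one-carbon folate metabolism (0.044). Eif5b was nearest to Nrf1 (0.035), a transcription factor of nuclear genes for mitochondria. Bzw1 was nearest to Rad23b (0.071), a DNA repair and proteasome shuttle factor, and then Eif4g2 (0.078), an eIF4G relative. Bzw2 was nearest to Alyref (0.054), an mRNA export factor, and Eif2s2 to Ola1 (0.069) and then the chaperonin subunit gene Cct6a (0.073). For Eif1 and Eif1b, which were added after their values were seen, the nearest were Atf4, the transcription factor of the integrated stress response (0.117), and S100a16 (0.097). Atf4 averaged 379 CPM in Apc Eif3h, 213 in Apc and 221 in WT. These are descriptions over 12 libraries, in which all profiles share the same scaling and tissue make-up.

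Related initiation genes were read from 3 lists. For each list, the share of all genes tested was 27.7% higher and 23.9% lower in Apc against WT. In Apc Eif3h against Apc it was 3.97% higher and 2.47% lower. Of 19 tested scanning and initiator tRNA partners, 14 were called higher in Apc against WT and 5 did not pass, with a median log2 fold change of 0.59. Trmt61a (1.74, SE 0.20), whose product methylates initiator tRNA, and Abce1 (1.31, SE 0.14), the recycling factor that splits ribosomes, were among those called higher. So were Mars (1.21, SE 0.14), whose product charges tRNA with methionine, and Eif2d (0.79, SE 0.08). Without WT replicate 1 or 2, 1 partner was called lower. Of the same 19, 1 was called in Apc Eif3h against Apc, Eif6 (0.79, SE 0.14, adjusted p = 0.0083), which keeps free large subunits from joining small ones. The count was 2 without Apc replicate 1 and 4 without Apc Eif3h replicate 3. Eif6 had 377 ± 33.5 CPM in Apc Eif3h, 217 ± 17.0 in Apc and 265 ± 58.2 in WT (SD, n = 4). Like Eif1 and Eif1b, Eif6 did not pass in Apc against WT (-0.28, SE 0.14, adjusted p = 0.109).

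Of 11 genes for eIF2B (which reloads eIF2 with GTP), the eIF2 kinases and the phosphatase subunits, 6 were called higher and 2 lower in Apc against WT, with a median of 0.30. Eif2b3 (1.51, SE 0.17) and Eif2b1 (1.23, SE 0.14) rose, and the kinase gene Eif2ak1 fell by 0.53 (SE 0.11). The number called lower was 1 with library totals only and in 5 of the 12 fits that left out 1 library. Of these 11, 1 was called in Apc Eif3h against Apc, Ppp1r15b, a phosphatase subunit that restores eIF2 alpha (0.35, SE 0.09, adjusted p = 0.0426). The number called higher was 0 in 7 of the 12 fits that left out 1 library, 1 in 4 and 2 without Apc Eif3h replicate 3. Ppp1r15b had 255 ± 17.9 CPM in Apc Eif3h, 199 ± 6.98 in Apc and 239 ± 29.2 in WT (SD, n = 4). It was called lower in Apc against WT (-0.26, SE 0.09, edgeR, adjusted p = 0.0330). In Apc Eif3h against WT it was not called (0.09, SE 0.09, adjusted p = 0.420). Of 14 eIF3 subunit genes, 11 were called higher in Apc against WT and 3 did not pass, with a median of 0.68. Between Apc Eif3h and Apc, Eif3g (0.47, SE 0.11, adjusted p = 0.0283) and Eif3f (0.41, SE 0.11, adjusted p = 0.0457) were called higher, and the targeted Eif3h was the 1 called lower. The number called higher there was 0 with library totals only. Over the 12 fits that left out 1 library it was 0 in 5, 1 in 5, 3 without WT replicate 2 and 4 without Apc Eif3h replicate 3, so that none of them gave 2. Against WT, Apc Eif3h had 16 of 19 partners called higher, and 13 of 14 eIF3 genes higher and 1 lower. Of the 11 eIF2B, kinase and phosphatase genes, 5 were called higher and 2 lower. Over all genes tested in that comparison, 29.7% were called higher and 27.8% lower.

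**Figure D4:**
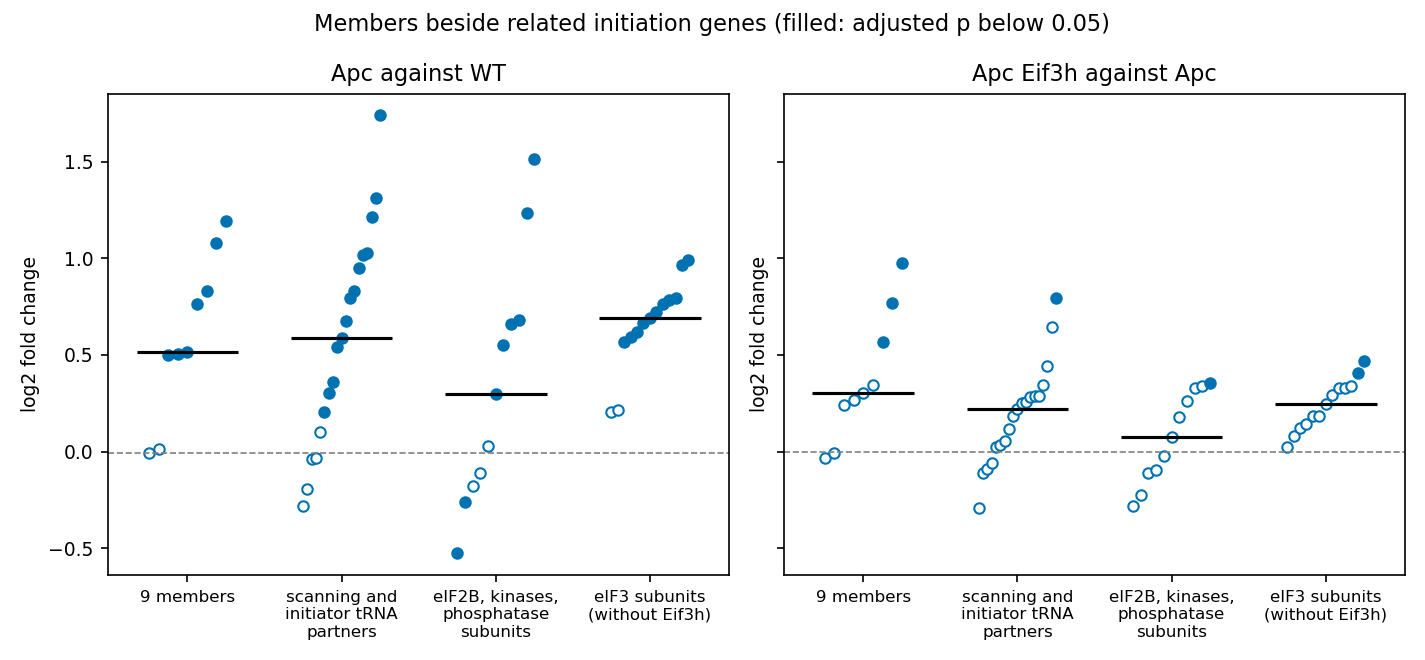
Log2 fold change (y axis) of the 9 genes and of the genes in 3 related lists, 1 point per gene, filled for an adjusted p below 0.05, with the list median as a bar and the median of all genes tested as a dashed line, for Apc against WT (left) and Apc Eif3h against Apc (right). Eif3h itself, at -2.13 on the right, is left out of the eIF3 list. Most points are filled on the left, and few are on the right.

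Promoter windows from RefSeq (GRCm38.p6, 250 bases before to 50 after the gene start) were found for all 9 genes and searched on both strands for CACGTG, the E-box bound by MYC family proteins, and ATCAAAG, a TCF/LEF core. CACGTG was present in 2 of 9, against 7.15% of 32851 promoters, and is shown with 10 bases on either side, in capitals. In Eif1b it began 24 bases before the start (chr9:120492572-120492597, plus strand), and in Bzw2 91 bases before it (chr12:36156901-36156926, minus strand). These distances count from the RefSeq starts, which lie inside both genes as GENCODE M21 annotates them, so each match lies downstream of the gene start given above.
Eif1b: tgcggacggtCACGTGgcggcggcgc
Bzw2: cttctgtgggCACGTGcggaggcatt
ATCAAAG was in 0 of 9 windows, against 3.73% of all. A match is a string of letters, not a measured site, and Eif1b and Bzw2 had log2 fold changes of 0.01 and 1.08 in Apc against WT.

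Short reads limit how well copies of these genes can be told apart. Eif1 has 20 processed pseudogenes that share runs of 36 bases with it, and their counts came to 21.7% of its own. For Eif2s2 the copies held 35.4%, and for the other members at most 4.49%. Runs of 36 bases were also shared with genes other than these pseudogenes. Counting all other genes, on either strand, the shared runs were 21.9% of those in Eif1, 15.6% in Bzw2 and 15.4% in Eif5b. They were 11.9% in Eif2s2 and 0.46% to 11.3% in the remaining members. With the counts of copies added, Eif1 had 362 ± 54.6 CPM in Apc Eif3h, 180.05 ± 17.2 in Apc and 181 ± 29.5 in WT (SD, n = 4), and no call of a member changed. Genes on the opposite strand also overlap members: the counts of Rev1 came to 11.03% of those of Eif5b, and those of Ankmy2 to 44.6% of those of Bzw2. The strand setting of the counting was not given in the sources used here, so reads of such neighbours cannot be told apart where they overlap.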

How the data were processed

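Gene-level read counts for 12 libraries were deposited by the authors as whole numbers without normalization, as the values show. Per the labels' protocols, RNA was isolated with an RNeasy Micro kit and TruSeq libraries were run as paired reads of 36 cycles on a NextSeq 500. Tools named in the submitters' processing notes, without roles, are HISAT2 2.1.0, featureCounts 1.6.4, Trim Galore 0.6.4 and FastQC 0.11.8, with the build GRCm38. The annotation release was not given in the sources used here, nor was the strand setting. Of 55421 identifiers, 55240 matched GENCODE M21, which gave symbols, coordinates and transcripts.

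The test was quasi-likelihood (glmQLFit, glmQLFTest) in edgeR 4.0.16 under R 4.3.3, after filterByExpr and TMM, over 12 libraries with 1 mean per group, with Benjamini-Hochberg adjustment over 17394 genes. Genes were called at an adjusted p below 0.05. The SE of a log2 fold change is its size over the root of F. Ratios were compared by exact permutation tests. CPM has TMM scaling, and levels are mean ± SD. Depth was 10483112 to 21298301 counts, and counting error is part of the spread between libraries.

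Named genes were the 9 members, Eif3h and Apc, up to 4 called genes per list and comparison with the smallest p, and the 2 nearest profiles of each member called in Apc against WT (mean log2 CPM at least 1). Eif2s3x, Eif2s3y, Eif1a, Rev1, Ankmy2, Eif2ak1, Cd79a, Ighm and Cela1 were named after their values were seen. So were Eif6 in the comparison of Apc with WT and Ppp1r15b in both comparisons with WT. The members and lists (3 of initiation genes, 7 of cell type markers) were chosen with earlier results of these data known. In the partner list, 19 of 20 symbols matched. Alternatives were library totals, RLE factors, DESeq2 1.42.0, no low-count filter, 2 groups alone, a replicate block, males only and leaving out each library. Adding pseudogene counts and using the main transcript's length were chosen after seeing the data. The summed level of the B cell markers is not reported here.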

Additional observations from a re-analysis of the deposited data

How the results depend on the processing

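In Apc against WT, 7 of the 9 genes were called higher under every alternative run, and in Apc Eif3h against WT 9 of 9. In Apc Eif3h against Apc, the count was 3 except for 5 in DESeq2, 2 in males only and 2 to 7 when 1 library was left out. Over all genes in that comparison, 459 were called higher with library totals only. DESeq2 called 1083 higher and 710 lower, and males only gave 369 and 222. Leaving out 1 library gave 234 to 1073 higher and 145 to 568 lower. Library totals only shifted the median of all genes to 0.22 in Apc against WT and 0.17 in Apc Eif3h against WT. In that order, 6800 and 6580 of 17394 genes were then called higher, in place of 4816 and 5168. Genes called lower numbered 2358 and 3127, in place of 4153 and 4831. The member counts under that setting stand beside this larger share of genes called higher. The share of calls that were higher went from 53.7% to 74.3% in Apc against WT, from 61.6% to 51.1% in Apc Eif3h against Apc, and from 51.7% to 67.8% in Apc Eif3h against WT. The causes were not tested.

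Values near 0 that were not called changed sign. Eif1 in Apc against WT was 0.23 with library totals only, 0.015 without a filter on low counts, 0.011 with 2 groups alone, 0.0015 in males only and -0.065 to 0.096 when 1 library was left out. Eif1b in Apc against WT was -0.0051 with RLE factors, -0.0043 in DESeq2 and -0.036 to 0.070 when 1 library was left out. Bzw2 in Apc Eif3h against Apc was 0.00085 with RLE factors, 0.0011 in DESeq2, 0.0038 with 2 groups alone, 0.090 in males only and -0.087 to 0.090 when 1 library was left out. Eif2s1 in Apc Eif3h against Apc was 0.046 in males only and -0.11 to 0.050 when 1 library was left out.

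With the length of the main transcript, 9 ratio differences had an adjusted p of 0.0476 by the exact permutation test. The adjusted value moved because Eif5/(Bzw1+Bzw2) in Apc against WT then also reached the smallest p. In Apc against WT these were Bzw1/Bzw2 (-0.57), Eif2s1/Eif2s2 (0.37), Eif5/(Bzw1+Bzw2) (-0.20) and Eif1/Eif5 (-0.52). In Apc Eif3h against Apc they were Eif1/Eif1b (0.41), Eif2s1/Eif2s2 (-0.32) and Eif5/(Bzw1+Bzw2) (0.56), and against WT Eif1/Eif1b (0.40) and Eif5/(Bzw1+Bzw2) (0.36). In males only, or with 1 library left out, ratios were compared as values.

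Replicate numbers gave no clear pairing of the samples. Deviations of same-numbered libraries correlated at -0.14 to 0.24, with 3 of 12 pairs above 0.1. In 2 of the 12 pairs the same number was the best partner, both between Apc and Apc Eif3h (0.24 for replicate 1 and 0.12 for replicate 4). Weak correlations cannot exclude a pairing. With a replicate block, the counts of called members were 7, 3 and 9, and Eif1 in Apc Eif3h against Apc was 0.98 (edgeR, adjusted p = 0.0129). Over all genes 555 were called higher and 357 lower there. For the ratios, the paired sign-flip test cannot go below 0.125.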
